A study of Mus musculus with 30 samples.

Results

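The potassium channel genes of the mouse hypothalamus were followed through the first day of life with and without estradiol benzoate (EB). Every probe set of the array with a single gene symbol starting with Kcn was taken, and each gene was represented by the probe set with the highest mean log2 signal over 30 arrays. This gave 84 Kcn genes from 167 probe sets, out of 45037 probe sets without controls, and 56 of the 84 genes passed the filter on dim probe sets that left 27022 probe sets in all. Female C57BL/6J pups were injected subcutaneously on the day of birth with 7.5 µg EB in peanut oil or with the oil alone, and the whole hypothalamus was collected 1, 3, 6, 12 or 24 h later. Each of the 10 groups had 3 arrays, labelled as biological replicates, of the GeneChip Mouse Genome 430 2.0 type. All groups shared strain, sex, day of injection and vehicle. Time after injection rose together with postnatal age, and the age in hours at injection was not given. Litters were not given in the sources used here.

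Potassium channels set the resting potential of neurons and glia, end action potentials and fix the interval between spikes. The voltage-gated (Kv) alpha subunits form pores, some only together with other alpha subunits, and auxiliary subunits tune or traffic them. Inward rectifiers (Kir) hold the membrane near the potassium equilibrium potential, and in the hypothalamus their G protein-gated and ATP-sensitive members link neurotransmitters and fuel status to firing. Tandem-pore (K2P) channels carry leak current, and calcium- and sodium-activated channels shape the potentials that follow a spike. Immature neurons add many of these currents as they mature.

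By family, the 84 genes were 31 Kv alpha subunits, 12 Kv auxiliary subunits, 15 Kir, 12 K2P, 11 calcium- or sodium-activated channel genes and 3 transcripts that encode no channel. The numbers measured above the filter were 21, 8, 10, 7, 8 and 2, in that order. The 28 genes under the filter were Kcna7, Kcnab3, Kcne1, Kcne2, Kcne3, Kcng1, Kcng2, Kcng4, Kcnh5, Kcnh7, Kcnj1, Kcnj14, Kcnj15, Kcnj2, Kcnj4, Kcnk15, Kcnk16, Kcnk4, Kcnk5, Kcnk7, Kcnmb1, Kcnmb4os1, Kcnn3, Kcnn4, Kcnq1, Kcns1, Kcns3 and Kcnv2. Their mean signals ran from 1.17 to 20.2, against 22.1 to 1278 for the 56 measured genes. Kcna7 at 20.2 lay just under the filter and Kcnk12 at 22.1 just above it.

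The deposited arrays differed in brightness. Their median signals were 52.9 to 66.9 at 12 h and 28 to 44.0 at the other times, so the signals of every array were multiplied to bring its median to 41.3, the average of all medians, and all signals below are on that scale. Of 20 genes that mark the hypothalamus, 17 were measured, and Rax was under the filter. Leptomeningeal fibroblast markers, genes of the brain's covering tissue, stood apart in the EB group at 24 h. The summed signal of the 21 measured markers was 610.4, 687.1 and 2535 in its 3 arrays, against 3888, 4498 and 4887 with oil at 24 h and 3888 to 11293 over the arrays of the other 9 groups. Of these 21 genes, 20 were lower with EB than with oil at 24 h, with a median log2 difference of -2.09. In whole tissue, fewer cells of a type and less RNA per cell cannot be told apart.

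EB against oil was compared at each time to ask which potassium channel genes responded to the hormone. None of the 56 measured genes passed the adjusted threshold of 0.05 in limma at any of the 5 times, in the mean of the 5 times, or in the test for an EB effect that differed between times. Over all 27022 probe sets the shares that passed were 0.0037% for 1 h, 0.474% for 3 h, 0% for 6 h and likewise 0% for 12 h, then 2.77% for 24 h, 0.074% in the mean and 0.951% in the test between times. A treatment-by-time linear model of the unscaled deposited signals without moderation, adjusted in the same way, also called 0 of the 56 genes in each of these comparisons. The study itself chose genes by fold change and tested them with Bonferroni comparisons, which was not repeated here. The lowest adjusted p at a single time was 0.064, for Kcnj13 at 24 h.

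At an unadjusted p under 0.05, limma counted 3 of the 56 genes at 1 h, where 8.63% of all probe sets stood, then 10 for 3 h (12.8%), 3 for 6 h (6.02%), 0 for 12 h (6.57%) and 7 for 24 h (15.7%). In the mean of the 5 times it counted 4 (8.69%), and in the test between times 5 (16%). The members' median log2 difference was 0.07, 0.14, 0.00, -0.01 and 0.01 in order of time, beside 0.02, 0.05, 0.02, -0.01 and -0.01 over all probe sets. At 3 h, 41 of the 56 genes had a positive difference, while over all probe sets 16139 were positive and 10883 negative. Of the 10 genes with a low unadjusted p at 3 h, 9 were higher with EB, beside 2216 of 3457 over all probe sets. The 95% interval of the EB difference lay within 1 log2 unit of 0 for 53, 49, 53, 54 and 50 genes at the 5 times, so a change beyond 2-fold lay outside the interval for most genes.

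**Figure D1:**
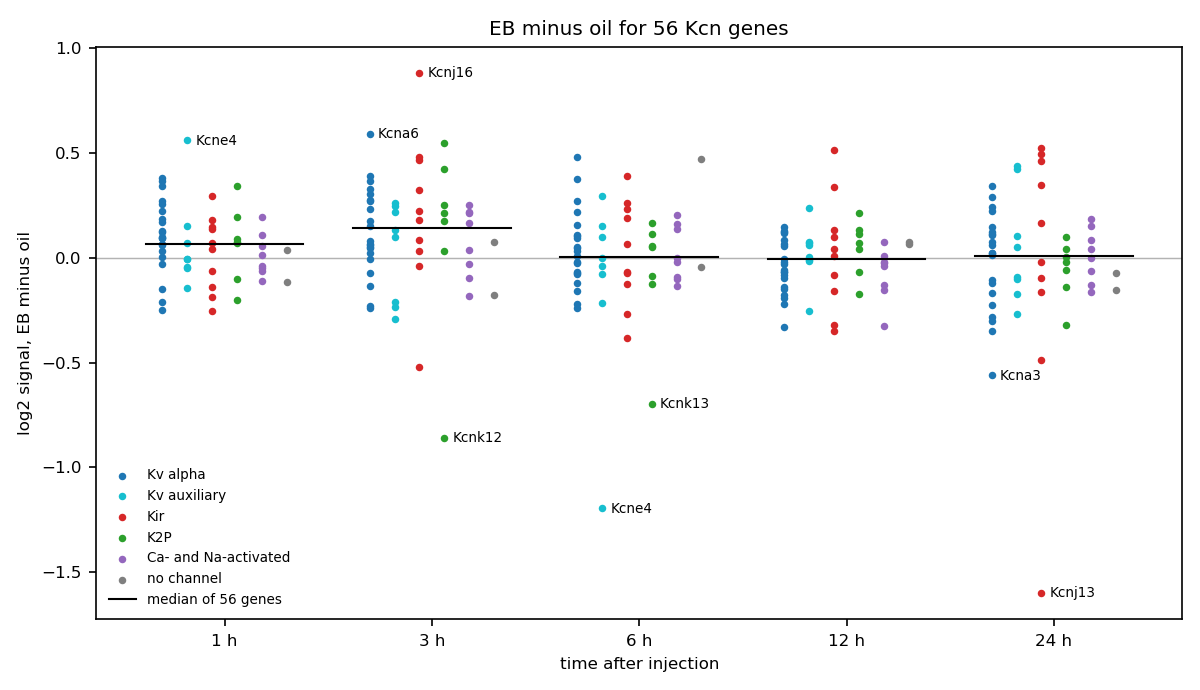
EB minus oil in log2 signal (vertical axis) at each time after injection (horizontal axis) for the 56 measured Kcn genes, each a point coloured by family, with a black bar at the median of the 56. The medians lie between -0.01 and 0.14, and the points far from 0 are Kcnj13 at 24 h (-1.60), Kcne4 at 6 h (-1.20), Kcnj16 at 3 h (0.88) and Kcnk12 at 3 h (-0.86), none of which passed the adjusted threshold.

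The arrays of the EB and oil groups did not overlap for 4 genes at 1 h, all higher with EB (Kcnc1, Kcne4, Kcnj8 and Kcnq5), and for 0 genes lower with EB, while 10.4% and 7.12% of all probe sets were separated in those directions. At 3 h, 8 were higher (8.7% of all) and 2 lower (5.3%). At 6 h, Kcns2 was the 1 gene separated upward (5.66%) and Kcnmb4, a BK channel subunit, the 1 separated downward (4.32%). At 12 h there were 1 higher (5.27%) and 3 lower (6.07%). At 24 h, 9 genes were higher (9.84%) and 2 lower (14.3%). The 9 were Kcna2, Kcna4, Kcnab1, Kcnf1, Kcnip2, Kcnj10, Kcnj5, Kcnj6 and Kcns2, and the 2 were Kcna3 and Kcnip4.

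At 1 h the smallest unadjusted p values belonged to Kcnc2, Kcnq5 and Kcnh8. Kcnq5 encodes a subunit of the M-current, the slow potassium current that muscarinic receptors shut off. Its signal was 78.8, 60 and 69.2 with oil and 90.7, 95.1 and 84.0 with EB, a log2 difference of 0.38 ± 0.16 (SE, n = 3 and 3, adjusted p = 0.50 in limma). Kcnq3, the other M-current subunit measured, gave 0.18 ± 0.11 at 1 h and 0.23 ± 0.11 at 3 h. The groups of Kcnq5 were apart at 1 h and overlapped at all later times. Kcnc2 and Kcnh8 differed by 0.27 and -0.25, with overlapping groups.

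At 3 h the smallest values belonged to Kcna6, Kcnf1 and Kcnj10. Kcna6, a Shaker-type alpha subunit, had 83.4, 82.6 and 122 with oil and 177, 115 and 141 with EB, which overlap, and a log2 difference of 0.59 ± 0.19 (adjusted p = 0.16 in limma). Kcnf1, an electrically silent subunit that works only inside Kv complexes, had 73.3, 83.7 and 63.2 with oil and 111, 86.0 and 91.5 with EB, which do not overlap. Its difference was 0.39 ± 0.13 (adjusted p = 0.17). Kcnj10 and Kcnj16, which form the mixed inward rectifier of astrocytes, were the 2 Kir genes with separated groups at 3 h besides Kcnj11. Kcnj16 had 39.2, 39.5 and 16.6 with oil and 71.9, 49.5 and 45.2 with EB, a difference of 0.88 ± 0.32 (adjusted p = 0.21), while its other measured probe set differed by -1.07 (adjusted p = 0.24). The other measured probe set of Kcna6 also had the opposite sign (-0.26).

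At 6 h the smallest values belonged to Kcne4, Kcnh1 and Kcnc4. Kcne4, an auxiliary subunit that inhibits some Kv channels, had 23.0, 26.9 and 27.5 with oil and 36.8, 8.67 and 4.45 with EB, so the EB arrays lay on both sides of the oil arrays. The difference of -1.20 ± 0.45 had an adjusted p of 0.68, and without EB 6 h replicate 1, the array at 36.8, Kcne4 passed. Kcnh1 (0.38) and Kcnc4 (0.48) were higher with overlapping groups. At 12 h the smallest values belonged to Kcnt2 (-0.33), Kcnj3 (-0.35) and Kcnk2 (0.21), with groups that did not overlap and unadjusted p from 0.060 to 0.069.

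At 24 h the smallest values belonged to Kcnj13, Kcns2 and Kcnip2. Kcns2, an electrically silent partner of other Kv subunits, had 199, 188 and 161 with oil and 203, 241 and 251 with EB. The difference was 0.34 ± 0.11 (adjusted p = 0.10), and in the mean of the 5 times Kcns2 was 0.18 ± 0.05 higher with EB (15 and 15 arrays, unadjusted p = 0.0011, adjusted p = 0.19). Kcnip2, a calcium-binding partner of A-type channels, had 105, 139 and 117 with oil and 149.9, 168 and 168 with EB, a difference of 0.44 ± 0.17 (adjusted p = 0.18). Among the G protein-gated Kir genes, Kcnj5 (0.50 ± 0.25), Kcnj6 (0.52 ± 0.20) and Kcnj3 (0.46 ± 0.18) had positive differences at 24 h and Kcnj9 a negative one (-0.49 ± 0.37). The adjusted p of these 4 ran from 0.19 to 0.57, and other measured probe sets of Kcnj9 (0.26) and Kcnip2 (-0.18) had the opposite sign. Without EB 24 h replicate 3, Kcnj3 and Kcnj13 passed the threshold at 24 h.

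The second comparison asked how the same genes changed over the first day. Of the 56 genes, 23 varied over the 5 times (adjusted p under 0.05, limma F test), or 41.1%, where 49% of all probe sets did. They were 10 Kv alpha, 3 Kv auxiliary, 5 Kir and 3 K2P genes, Kcnt1 and Kcnmb4os2. The highest mean fell at 12 h for 14 of the 23, at 24 h for 8 and at 6 h for 1, and the lowest mean of 10 genes was at 1 h, of 7 at 3 h, of 5 at 6 h and of 1 at 24 h. Of the 23 genes, 60.9% were thus highest at 12 h and 34.8% at 24 h, where among all 13252 probe sets that varied 43.4% and 14.5% were, with 24.1% highest at 1 h. The lowest mean of all these probe sets was at 1, 3, 6, 12 and 24 h for 30.7%, 14.6%, 19.6%, 23.9% and 11.2%.

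The 12 h arrays were the brightest before scaling, and their part in the peaks at 12 h was not tested beyond leaving them out. Without them 15 genes varied, 14 of them among the 23, and 28.1% of all probe sets did. Of the 14 genes that were highest at 12 h, 7 were lost. The genes lost were Kcna2, Kcnab2, Kcnc4, Kcnh2, Kcnj11, Kcnj3 and Kcnk1, all highest at 12 h, with Kcnh8 and Kcnt1.

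**Figure D2:**
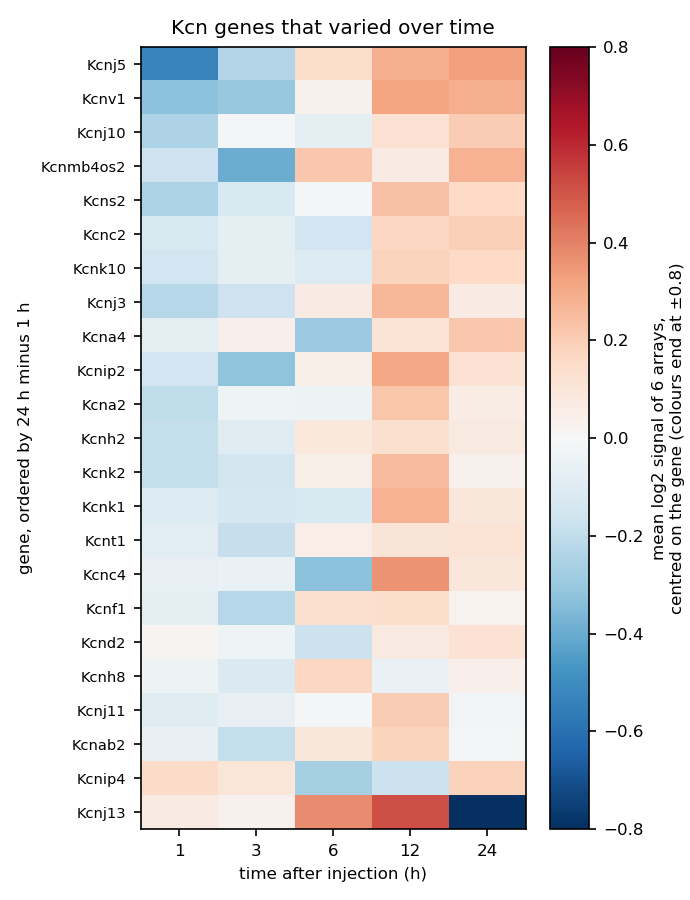
Mean log2 signal of the 6 arrays at each time (columns, h after injection), centred on each gene, for the 23 Kcn genes that varied over time (rows, ordered by 24 h minus 1 h). Colours end at 0.8 log2 units either way: Kcnj5 runs from -0.53 at 1 h to 0.33 at 24 h, Kcnip4 is lowest at 6 h (-0.27), and Kcnj13 falls to -1.0 at 24 h.

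At 24 h against 1 h, with oil and EB averaged, 9 genes were higher and 1 was lower (adjusted p under 0.05, limma, 6 arrays at each time), beside 10.9% and 6.74% of all probe sets. The 9 that rose were Kcnj5, Kcnv1, Kcnj10, Kcns2, Kcnc2, Kcnk10, Kcna2, Kcnh2 and Kcnk2, and the 1 that fell was Kcnj13. The count of 10 fell to 6 without EB 1 h replicate 3, to 3 without scaling (Kcnj5, Kcnv1 and Kcnj13) and to 0 in the unmoderated model of unscaled signals. All 9 gains were under 1 log2 unit. The members' median change was 0.09, against 0.03 over all probe sets. Of these 10 genes, 7 had their highest mean at 12 h and 3 at 24 h (Kcnj5, Kcnj10 and Kcnc2).

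EB acts through estrogen receptors, which bind DNA, so promoters were searched for their element, and those of the 3 Kir genes that changed between 1 h and 24 h are shown because members of this family moved in both directions. RefSeq (GRCm38.p6) held promoters for 44 of the 56 measured genes, 66 promoters in all, out of 32851. In windows of 300 bases (250 before and 50 after the start), searched on both strands, the full palindromic estrogen response element, with 3 free bases between its arms, was in 0 of the 66 and in 0.0700% of all promoters. The core hexamer AGGTCA, longer than the arm GGTCA of the full element as searched, was in 5 of the 66 (7.58%) and in 16.3% of all. Of the 10 genes that changed, 8 had a promoter, and Kcnk10 alone held the hexamer. The cyclic AMP element TGACGTCA was in 0 of the 66 (1.79% of all), the AP-1 site TGANTCA in 3 (4.55%, against 7.81% of all), the E-box CACGTG in 3 (4.55%, against 7.15% of all) and the GC box GGGCGG in 29 (43.9%, against 35.7% of all). A match is a run of letters, not a shown binding site, and a missing match says only that the letters were not in the window. The 250 bases before the start are given 5′ to 3′ on the gene's strand, with GC boxes of either strand in capitals: Kcnj5 lies at chr9:32344345-32344594 on the minus strand (58% G or C), Kcnj10 at chr1:172340960-172341209 on the plus strand (62%) and Kcnj13 at chr1:87394730-87394979 on the minus strand (45.2%). The median over all promoters was 52.4%, and over the 66 member promoters it was 58.6%. The part of this base composition in the motif shares was not tested.
Kcnj5: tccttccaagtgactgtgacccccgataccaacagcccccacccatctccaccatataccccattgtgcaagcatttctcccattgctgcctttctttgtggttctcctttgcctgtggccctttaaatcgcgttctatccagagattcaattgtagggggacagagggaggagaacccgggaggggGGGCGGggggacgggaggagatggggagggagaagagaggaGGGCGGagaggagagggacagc
Kcnj10: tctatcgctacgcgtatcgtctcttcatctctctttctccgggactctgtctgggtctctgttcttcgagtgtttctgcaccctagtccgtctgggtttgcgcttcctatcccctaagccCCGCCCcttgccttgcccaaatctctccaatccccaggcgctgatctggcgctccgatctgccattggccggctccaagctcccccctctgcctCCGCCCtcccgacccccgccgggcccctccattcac
Kcnj13: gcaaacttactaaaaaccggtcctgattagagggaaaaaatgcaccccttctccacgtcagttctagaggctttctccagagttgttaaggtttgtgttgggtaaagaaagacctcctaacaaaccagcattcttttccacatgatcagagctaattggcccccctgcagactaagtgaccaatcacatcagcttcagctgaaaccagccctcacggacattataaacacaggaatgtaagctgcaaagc
The GC boxes began 63 and 22 bases before the start of Kcnj5 and 130 and 36 bases before that of Kcnj10, and Kcnj13 had none.

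Kcnj5 rose most among the genes that passed. It encodes a G protein-gated inward rectifier subunit, the type of channel that opens when receptors such as those for GABA or opioids release G protein beta-gamma. Its signal was 28.9, 26.6 and 18.1 with oil and 23.4, 25.3 and 34.1 with EB at 1 h, and 47.3, 36.5 and 34.4 with oil and 55.9, 55.8 and 53.2 with EB at 24 h. Every array at 24 h was above every array at 1 h. The change was 0.85 ± 0.18 in log2 signal, or 1.81-fold (adjusted p = 0.0015, limma), with 0.70 ± 0.25 in oil and 1.01 ± 0.25 in EB taken alone. At 3 h the signals were 26.4 to 41.1 and at 12 h 38.5 to 48.6, and at 6 h they were spread from 26.1 to 55.9. The call in EB alone was lost without EB 1 h replicate 1.

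The other G protein-gated subunits gave smaller or no calls. Kcnj3 varied over time and was highest at 12 h, and its change to 24 h was -0.01 ± 0.18 in oil and 0.60 ± 0.18 in EB (adjusted p = 0.036 in EB). Its EB signals at 24 h were 182, 165 and 106, and those at 1 h 83.0, 92.1 and 121, so the groups overlapped. This call was lost without EB 1 h replicate 1 or 2, or EB 24 h replicate 1 or 2, and also without scaling, without the filter and without the variance trend. A second probe set of Kcnj3 rose in the mean of oil and EB (0.58, adjusted p = 0.028). Unlike the brightest, it changed by 0.63 in oil and 0.52 in EB, neither of which passed alone. Kcnj6 and Kcnj9 did not pass over time (adjusted p = 0.45 and 0.11), with changes of 0.30 ± 0.14 and 0.35 ± 0.26. The other measured probe set of Kcnj9 did vary over time (adjusted p = 0.020, limma F test) and changed by -0.07.

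**Figure D3:**
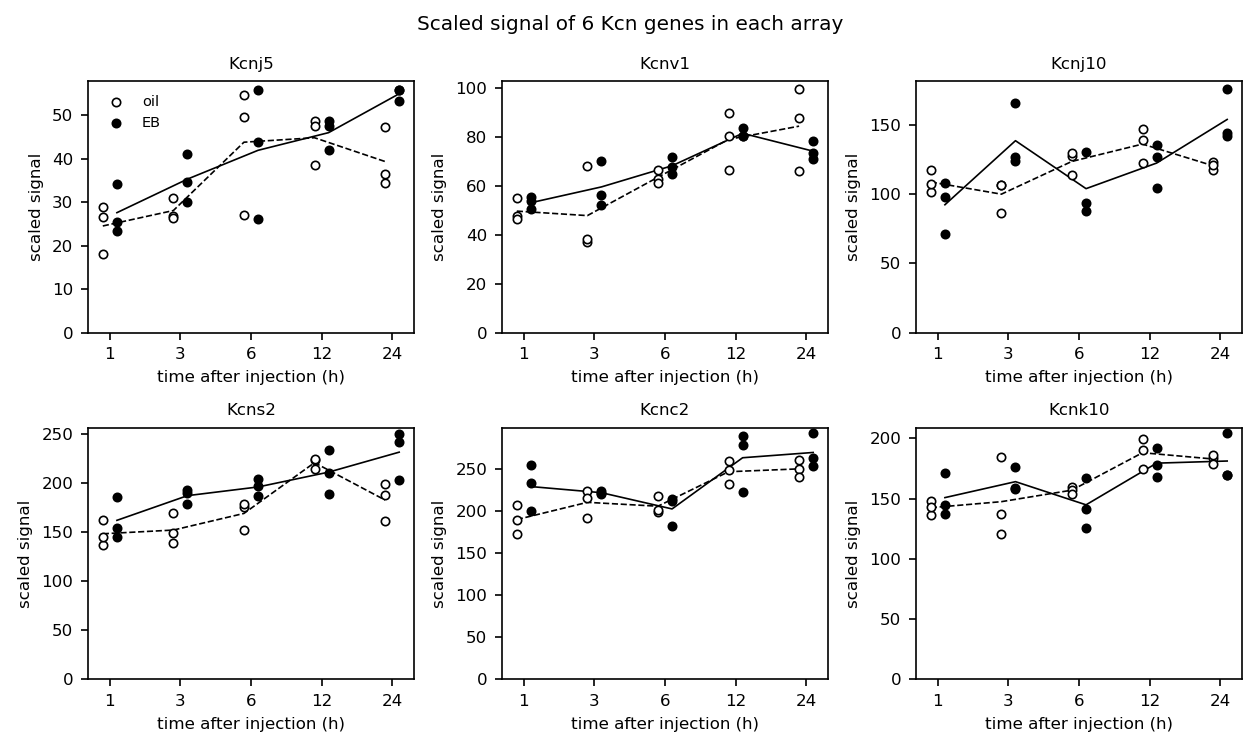
Scaled signal (vertical axes, from 0) of Kcnj5, Kcnv1, Kcnj10, Kcns2, Kcnc2 and Kcnk10 at the 5 times (horizontal axes, in h since the injection, evenly spaced), with 1 circle for each array (open, oil; filled, EB) and lines through the group means (dashed, oil; solid, EB). Kcnj5 goes from 18.1 to 34.1 at 1 h to 34.4 to 55.9 at 24 h, and Kcnj10 is at 142 to 176 with EB and 118 to 123 with oil at 24 h.

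Kcnj10 encodes the inward rectifier by which astrocytes take up potassium. At 1 h its signal was 101, 118 and 108 with oil and 98.3, 71.1 and 108 with EB, and at 24 h 118, 123 and 121 with oil and 144, 176 and 142 with EB. The oil arrays of both times overlapped, and the EB arrays at 24 h were above all others of both times. The change was 0.45 ± 0.11 in the mean (adjusted p = 0.0054, limma), 0.15 ± 0.16 in oil and 0.75 ± 0.16 in EB (adjusted p = 0.0022). The EB difference was -0.26, 0.47, -0.27, -0.16 and 0.35 in order of time, and the test for a difference between times gave an unadjusted p of 0.0031 and an adjusted p of 0.11. Without EB 6 h replicate 3 that test passed. Without scaling the changes were 0.31 in the mean (adjusted p = 0.23) and 0.78 in EB (adjusted p = 0.061), and neither passed. Of 14 astrocyte and radial glia markers, 2 were higher and 3 lower at 24 h than at 1 h in the mean, in oil alone 3 were higher and 0 lower, and in EB alone 1 was higher and 4 lower. Their part in the change of Kcnj10 was not tested.

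Kcnj13 was the 1 gene that fell. It encodes an inward rectifier of transporting epithelia such as the choroid plexus. At 1 h its signal was 41.0, 28.3 and 26.8 with oil and 39.3, 30 and 48.6 with EB, and at 24 h 21.1, 48.6 and 24.0 with oil and 7.84, 4.66 and 24.1 with EB. The fall lay in 2 of the 3 EB arrays at 24 h, whose signals were under the lowest mean signal that the filter kept, 21.9, and the third EB array was within the oil arrays. The change was -1.06 ± 0.34 in the mean (adjusted p = 0.028, limma), -0.11 ± 0.47 in oil and -2.01 ± 0.47 in EB (adjusted p = 0.0066). EB against oil at 24 h differed by -1.60 ± 0.47, with a 95% interval from -2.57 to -0.63 and overlapping groups.

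The same 2 arrays had the lowest leptomeningeal marker signals, 610.4 and 687.1, and the third had 2535. The 5 measured choroid plexus markers, among them Ttr and Folr1, showed 0 calls, with a median EB difference at 24 h of 0.01 and summed signals of 173, 218 and 241 with EB against 238, 199 and 227 with oil. Kl, Aqp1, Slc4a5 and Cldn2, further choroid plexus markers, were under the filter. The part of the leptomeninges in the fall of Kcnj13 was not tested. The mean call for Kcnj13 was lost without oil 1 h replicate 1, EB 1 h replicate 3, oil 24 h replicates 1 or 3, or EB 24 h replicates 1 or 2, with a floor of 16 and with no filter. The call in EB alone was lost without EB 24 h replicate 2 and with a floor of 16.

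**Figure D4:**
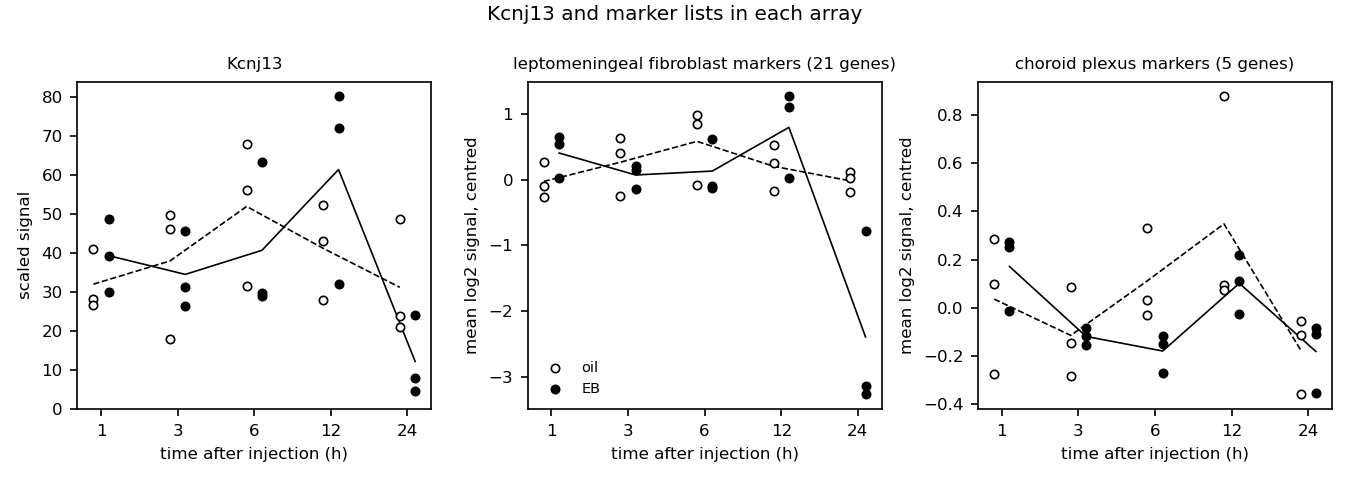
Left, scaled signal of Kcnj13; centre and right, mean log2 signal of 21 leptomeningeal fibroblast and 5 choroid plexus markers, each gene centred on its mean over the 30 arrays. Circles are single arrays (open, oil; filled, EB) at the 5 times (in h) and lines join group means: at 24 h the EB arrays stand at 7.84, 4.66 and 24.1 for Kcnj13 and at -3.27, -3.14 and -0.78 for the leptomeningeal markers, while the choroid plexus markers stand between -0.36 and -0.05 in both groups.

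The ATP-sensitive channels are built from Kcnj11 in neurons or Kcnj8 in pericytes and smooth muscle, with a sulfonylurea receptor. Kcnj11 varied over time with its peak at 12 h, where signals were 220.5 to 274 against 181 to 225 at 1 h and 189 to 235 at 24 h. It no longer passed without the 12 h arrays or with quantile normalization (adjusted p up to 0.72 over the alternatives, limma F test). Kcnj8 was 77.9 to 91.9 at 1 h and 60 to 85.0 at 24 h, a change of -0.31 ± 0.13 that missed the threshold (adjusted p = 0.11). Its partner Abcc9 fell by 0.64 in the mean (adjusted p = 0.00024), and fell in oil and in EB taken alone (-0.74 and -0.54). The markers of mural cells, the cell type of both genes, fell for 7 of 10 genes in the mean, with a median of -0.62, for 0 in oil alone and for 8 in EB alone. Their part in the change of Abcc9 was not tested. The neuronal receptor gene Abcc8 changed by 0.19 and did not pass.

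Among Kv alpha subunits, 5 of 21 measured genes rose by 24 h and 0 fell, where 10.9% and 6.74% of all probe sets did. Kcnv1 and Kcns2 are electrically silent subunits that modify other Kv channels. Kcnv1 had 47.8, 54.8 and 46.2 with oil and 50.3, 55.2 and 53.6 with EB at 1 h, and 99.4, 87.5 and 66.0 with oil and 78.1, 70.8 and 73.4 with EB at 24 h. The 2 times did not overlap in either treatment, and the change was 0.62 ± 0.13, or 1.53-fold (adjusted p = 0.0012, limma). In oil alone it was 0.75 ± 0.18 and in EB alone 0.48 ± 0.18. Kcnj5 and Kcnv1 were the 2 genes whose call in the mean held under each of the 20 alternatives fitted in limma that kept them. The stricter filter on dim probe sets left both genes out, so their calls were not tested under it. The unmoderated model of unscaled signals called 0 of the 56 genes for this change. In oil alone the call for Kcnv1 was lost without oil 1 h replicate 3 or oil 24 h replicate 1, and without scaling (0.45, adjusted p = 0.15).

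Kcns2 had 163, 137 and 145 with oil and 186, 154 and 145 with EB at 1 h. At 24 h it had 199, 188 and 161 with oil and 203, 241 and 251 with EB. The oil arrays of both times overlapped and the EB arrays did not, and the change was 0.41 ± 0.08 (adjusted p = 0.00077, limma). Without scaling it was 0.27 (adjusted p = 0.13) in the mean and 0.54 in EB (adjusted p = 0.063), and neither passed. Kcnf1, a further silent subunit, varied over time with its lowest mean at 3 h and a change to 24 h of 0.10 ± 0.09.

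Kcnc2 encodes a fast-closing channel that lets neurons fire at high rates. Its signal rose from 206, 189 and 173 with oil and 254, 199 and 233 with EB at 1 h to 249, 240.2 and 259.9 with oil and 263, 292 and 253 with EB at 24 h. The oil groups were apart and the EB groups overlapped at 253 and 254. The change was 0.32 ± 0.07 in the mean (adjusted p = 0.0034, limma) and 0.40 ± 0.10 in oil (adjusted p = 0.020). The call in oil was lost without oil 1 h replicate 2 or 3, or oil 24 h replicate 1 or 3. Without scaling both were lost, with 0.18 in the mean (adjusted p = 0.37) and 0.10 in oil (adjusted p = 0.71). Kcnc4 of the same group varied over time with its low at 6 h and its peak at 12 h, and Kcnc1 did not pass over time (245 to 365 over the 30 arrays). A dimmer probe set of Kcnc1 did pass and rose by 0.44 from 1 h to 24 h (adjusted p = 0.00061), so the probe sets of this gene disagreed.

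Kcna2, a Shaker-type subunit of axons, changed by 0.27 ± 0.09 and Kcnh2, the ERG-type channel that slows repeated firing, by 0.26 ± 0.09. Kcna2 ran from 114 to 142 at 1 h and from 131 to 175 at 24 h. Kcnh2 ran from 110.4 to 145 at 1 h and from 129 to 167 at 24 h. In both genes the 2 times overlapped, the means were highest at 12 h, and the adjusted p was 0.031 and 0.035. The call for Kcna2 was lost without oil 1 h replicate 2, EB 1 h replicates 2 or 3, oil 24 h replicates 1 or 3, or EB 24 h replicate 2. That for Kcnh2 was lost without oil 1 h replicates 2 or 3, EB 1 h replicates 1 or 3, oil 24 h replicates 2 or 3, or EB 24 h replicates 1 or 3. Both were also lost with quantile normalization (0.23 and 0.22) and without scaling, where the changes were 0.13 for Kcna2 and 0.12 for Kcnh2. Kcna1 was measured at 21.8 to 67.9 with no call, and Kcna4 varied over time (low at 6 h, high at 24 h), with a change of 0.30 ± 0.12 that missed the threshold (adjusted p = 0.079). Kcnh8, an ELK-type channel, passed over time with an adjusted p of 0.049 and was the 1 gene with its peak at 6 h, a call lost under 27 of 40 alternatives.

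**Figure D5:**
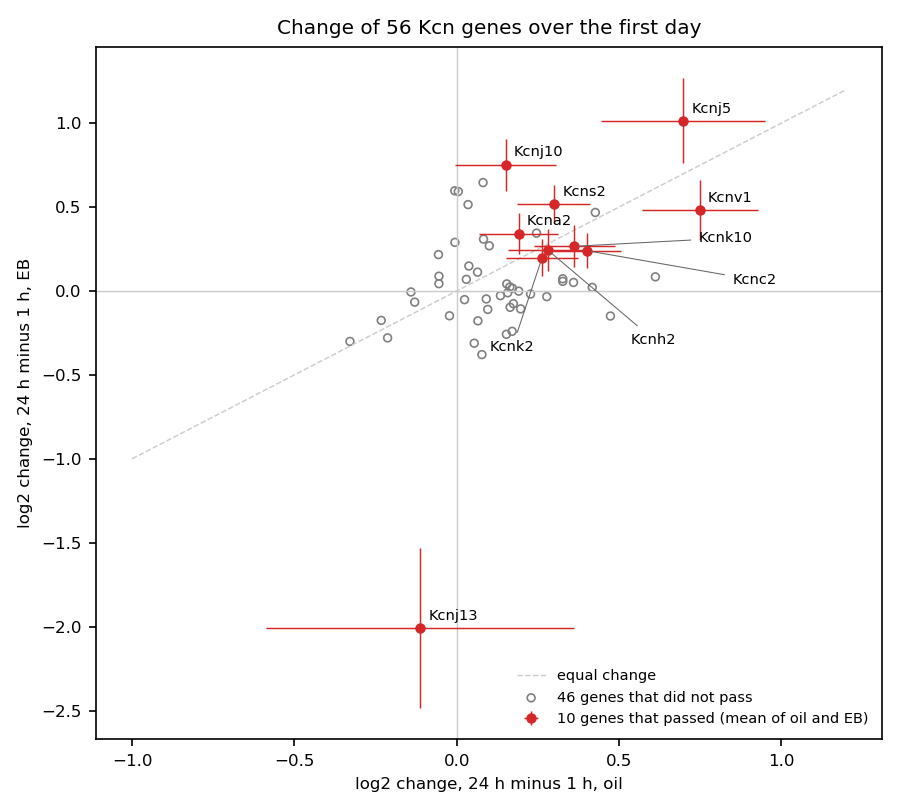
Log2 change from 1 h to 24 h in oil (horizontal axis) and in EB (vertical axis) for 56 Kcn genes, with the dashed line at equal change. Filled points with bars (SE) are the 10 genes that passed in the mean of both, 9 in the upper right quadrant from 0.15 in oil for Kcnj10 to 1.01 in EB for Kcnj5, and Kcnj13 at -0.11 in oil and -2.01 in EB; open points are the 46 genes that did not pass.

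The A-type current rests on Kcnd pores with Kcnip and Dpp partners. Kcnd2 varied over time (adjusted p = 0.028, and up to 0.12 in the 7 of 40 alternatives that lost the call, among them leaving out oil 6 h replicate 2, EB 6 h replicates 1 or 3, or oil 24 h replicate 3), lowest at 6 h with signals of 907 to 1292 and highest at 24 h with 1252 to 1497, while its change from 1 h to 24 h was 0.09 ± 0.08. The dimmer measured probe sets of Kcnd2 also varied over time (adjusted p = 1.1e-07 and 4.1e-10, limma F test). From 1 h to 24 h they changed by -0.12 and -0.24, opposite in sign to the brightest, and did not pass. Kcnd3 and Kcnip1 did not pass over time, with signals of 628 to 836 and 552 to 812 over the 30 arrays. The second-brightest probe set of Kcnip1 did vary over time (adjusted p = 0.00026, limma F test), and its dimmest measured one did not (0.57). A second, dimmer probe set of Kcnd3 rose by 0.86 from 1 h to 24 h (adjusted p = 7.2e-05), against 0.09 ± 0.06 for the brightest. Kcnip4 had the same low at 6 h, 117 to 159 against 173 to 223 at 1 h and 168 to 221 at 24 h, which left no overlap of 6 h with either time (adjusted p = 0.0018, limma F test). Kcnip2 varied in a different order, lowest at 3 h and highest at 12 h, and rose from 1 h to 24 h in EB (0.51 ± 0.17, adjusted p = 0.049, limma) with 0.03 ± 0.17 in oil. This call was lost under 11 of 15 alternatives: without EB 1 h replicates 2 or 3 or any 1 of the 3 EB 24 h arrays, with the replicate block (adjusted p = 0.053), without scaling, with quantile normalization, without the filter or the trend, and with the mean of its probe sets (0.09). The second measured probe set of Kcnip2 changed by -0.34 in EB (adjusted p = 0.47, limma) and did not vary over time (adjusted p = 0.28, limma F test). With the mean of its probe sets, Kcnip2 no longer varied over time (adjusted p = 0.46, limma F test). Kcnip3 did not pass, though its other measured probe set, at a signal of 24.2, varied over time (adjusted p = 0.0053, limma F test). Of the partners, Dpp10 rose by 0.28 (adjusted p = 0.0084) and Dpp6 changed by -0.09.

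The M-current genes Kcnq3 and Kcnq5 did not pass over time (adjusted p = 0.13 and 0.099), with changes of 0.04 ± 0.08 and 0.21 ± 0.11 from 1 h to 24 h. Kcnab2, a beta subunit of Shaker-type channels, varied with its peak at 12 h.

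Among K2P channels, 2 of 7 measured genes rose by 24 h, beside 10.9% of all probe sets. Both encode mechanically gated leak channels. Kcnk10 had 148, 136 and 143 with oil and 144, 171 and 137 with EB at 1 h, and 184, 186 and 179 with oil and 169.5, 204 and 169.8 with EB at 24 h. In oil the 2 times were apart and in EB they overlapped at 171, and the change was 0.31 ± 0.09 (adjusted p = 0.014, limma). Without scaling it was 0.18 and did not pass (adjusted p = 0.38). Kcnk2 ran from 259 to 322 at 1 h, from 358 to 499.9 at 12 h and from 306 to 392 at 24 h, with a change of 0.23 ± 0.08 (adjusted p = 0.042). That call was lost without oil 1 h replicates 1 or 3, EB 1 h replicates 2 or 3, oil 24 h replicates 1 or 2, or EB 24 h replicate 1, and also without scaling (0.09), with quantile normalization (0.19), without the filter and without the trend. Kcnk1 varied over time with a peak at 12 h, 226 to 307, and missed the threshold at 24 h against 1 h (0.20 ± 0.10). The dimmer measured probe set of Kcnk1 did not vary over time (adjusted p = 0.28, limma F test) and changed by 0.05. Kcnk3, an acid-sensitive leak channel, did not pass over time (41.9 to 91.9 over the 30 arrays), and its EB difference at 3 h was 0.42 ± 0.18 with separated groups (adjusted p = 0.32).

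Of the 8 calcium- and sodium-activated channel genes measured, Kcnt1, a sodium-activated channel, varied over time, and none was called at 24 h against 1 h. Kcnma1, the pore of BK channels, gave signals of 411 to 627 over the 30 arrays and a change of -0.01 ± 0.08. Its dimmer measured probe sets disagreed over time, with adjusted p of 0.0499, 0.13, 0.17 and 0.035 (limma F test). Kcnn2, an SK channel that sets the after-hyperpolarisation, changed by -0.25 ± 0.11 (adjusted p = 0.14). Kcnmb4os2, a transcript named for its position opposite Kcnmb4, varied over time and changed by 0.45 ± 0.17 (adjusted p = 0.059), while Kcnmb4 itself changed by -0.01 ± 0.06. Whether the array's probes keep the strands of this locus apart was not tested.

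In oil alone, 24 h against 1 h, 2 genes were higher (Kcnc2 and Kcnv1) and 0 lower, beside 4.97% and 1.8% of all probe sets. In EB alone, 5 were higher (Kcnj5, Kcnj10, Kcns2, Kcnj3 and Kcnip2) and 1 lower (Kcnj13), beside 4.71% and 5.51%. The 2 sets share no gene. Whether a gene's change over the day differed between oil and EB is part of the test for an EB effect that differed between times, which none of the 56 genes passed. The EB 24 h arrays enter both this change and the comparison of EB with oil at 24 h.

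Among 24 measured genes that partner, anchor or share work with potassium channels, 6 rose and 1 fell from 1 h to 24 h in the mean of oil and EB, and 0 were called for EB at 24 h. The 6 were Amigo1 (0.43), a companion of Kv channels, Adam22 (0.33), part of the Lgi1 complex at Kv1 channels, the scaffold Dlg1 (0.30), Cntn2 (0.30), which clusters Kv1 channels along axons, Dpp10 (0.28) and Snx27 (0.25), which sorts G protein-gated rectifiers. The 1 that fell was Abcc9. The median over the 24 genes was 0.06. The pacemaker genes Hcn2 and Hcn3 and the sodium pump genes Atp1b1 to Atp1b3 were not called for this change.

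A further 83 probe sets belonged to the same genes, and 34 of them passed the filter. Of these 0 were called for EB against oil, 18 varied over time, beside 49% of all probe sets, and 4 were higher at 24 h than at 1 h, beside 10.9%. The 4 were those of Kcnc1, Kcnd3 and Kcnj3 above and one of the untranslated transcript Kcnq1ot1 (0.22, adjusted p = 0.032), and in each case the brightest probe set did not pass this comparison. The second measured probe set of Kcna2 changed by 0.21 (adjusted p = 0.053), against 0.27 for the brightest.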

How the data were processed

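The authors hybridised hypothalamic RNA to 30 GeneChip Mouse Genome 430 2.0 arrays and deposited MAS5 signal intensity for each probe set on a linear scale, and the MAS5 version and any scaling were not given in the sources used here. MAS5 subtracts mismatch signal, so dim probe sets vary widely, and the number of arrays limits the precision. Arrays were multiplied to a common median (41.3, the average of all medians), floored at 1 and taken to log2. Of 45037 probe sets beside 64 controls, 27022 remained once the dimmest 40% (mean log2 signal) were removed. limma 3.58.1 in R 4.3.3 fitted 10 group means with a trend in eBayes, two-sided, with Benjamini-Hochberg adjustment over all probe sets kept and a threshold of 0.05. Errors of log2 differences are SE. Gene symbols came from the platform annotation, which gave 34945 probe sets 1 symbol, 932 several and 9160 none, and probe sets with several were not used as members. The script was tested on simulated data. Where nothing says that replicates came from separate litters, p-values measure the spread between these samples.

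Named were members that passed an EB comparison, the 3 with the smallest unadjusted p at each time, up to 25 with the largest change over the day among those that varied, hypothalamic channels of known roles, and channel partners that passed or were among the 5 largest time changes. The members and lists were chosen with earlier results of these data known. Marker lists covered hypothalamus, neurons, leptomeninges, choroid plexus, mural, endothelial, astrocyte, oligodendrocyte, microglial and red blood cells. Alternatives changed the scaling, floor, filter, variance model, array weights, probe set rule, arrays fitted, replicate block and test.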

Additional observations from a re-analysis of the deposited data

How the results depend on the processing

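EB against oil gave 0 Kcn genes at each time under the scaling, filter, floor and variance alternatives, and with array weights Kcnj13 passed at 24 h (1 gene) and Kcnj10 passed the test between times (1 gene). Without scaling, 55 genes varied over time, and 3, 0 and 2 genes changed from 1 h to 24 h in the mean, in oil and in EB, with all probe sets shifted by a median of -0.11, -0.25 and 0.04. The unmoderated treatment-by-time model of unscaled signals gave 55, 0, 0 and 0. The share of all probe sets that varied over time was not counted in either unscaled fit. The 55 therefore has no background beside it and is not a result about these genes. In oil, leaving out the lowest 60% gave 1 gene, Kcnc2, because Kcnv1 was itself left out, and array weights gave 5. Without the 12 h arrays 15 genes varied. The cause of the other differences was not tested.

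Leaving out 1 array gave 0 to 1 genes for EB at 6 h (Kcne4 without EB 6 h replicate 1), 0 to 2 at 24 h (Kcnj3 and Kcnj13 without EB 24 h replicate 3), 0 to 1 in the test between times (Kcne4 without EB 6 h replicate 1, Kcnj10 without EB 6 h replicate 3) and 0 in the other EB comparisons. It gave 21 to 25 genes over time and, from 1 h to 24 h, 6 to 10 in the mean (6 without EB 1 h replicate 3), 0 to 2 in oil (0 without oil 1 h replicate 3 or oil 24 h replicate 1, 1 without oil 1 h replicate 2 or oil 24 h replicate 3) and 3 to 5 in EB (3 without EB 24 h replicate 2). Of 1239 values of single genes under alternatives, 1120 kept their call and 119 lost it. Neither the unmoderated model nor fits whose filter left the gene out gave any of these values. Most of these values came from the test over time, which has no direction. Of the changes from 1 h to 24 h, 0 changed direction.

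Same-numbered EB and oil arrays did not deviate together (15 pairs, r from -0.13 to 0.09, 0 over 0.1). Differently numbered arrays were not compared and litters were not given, so whether the numbers pair the arrays is unknown. With the replicate block, 0 genes passed for EB, 23 varied over time, and 10, 2 and 6 changed in the mean, in oil and in EB. These equal the counts without the block, but over time Kcnh3 replaced Kcnh8, and in EB Kcnj6 replaced Kcnip2.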

Other observations

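Markers of other cell types also moved between 1 h and 24 h. In the mean of oil and EB, 7 of 13 measured endothelial markers fell and 1 rose, 18 of 21 leptomeningeal markers fell, and 4 of 15 neuronal markers fell and 1 rose. In oil alone the markers that fell were 1 endothelial, 0 leptomeningeal and 0 neuronal, and in EB alone 5, 21 and 5. At 24 h EB was below oil for 1 of 15 neuronal, 1 of 10 mural, 1 of 14 astrocyte and 2 of 12 microglial markers, and for 0 of 13 endothelial, 0 of 10 oligodendrocyte and 0 of 17 hypothalamic markers (adjusted p under 0.05, limma). Red blood cell markers with a probe set (Hba-a1, Hbb-y, Alas2 and Slc4a1) were under the filter.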
